A study of Mus musculus with 6 samples.

Results

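The 44 collagen chain genes of the mouse were followed in the mouse prostate cancer line RM-1 with and without forced expression of Bhlhe22. They are the protein-coding genes of the deposited expression table whose symbol has the form Col, a type number, the letter a and a chain number, and they are 44 of the 55487 genes listed. The rule uses the symbol and gene type and no expression value. One group carried a Bhlhe22-overexpression lentivirus (Bhlhe22 cells) and the other a blank vector lentivirus (vector cells), with 3 RNA-seq libraries each. Bhlhe22 belongs to the basic helix-loop-helix family of transcription factors and acts in developing neurons. All cells were grown in culture at the same temperature and CO2 level, and the labels give no clone, selection or harvest time and do not say whether replicates were separate cultures, so the spread behind the p-values may be technical only. The comparison asks which collagen genes differ between Bhlhe22 and vector cells.

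Collagens are extracellular matrix proteins made of 3 chains wound into a triple helix. Fibrillar collagens assemble into the banded fibrils of connective tissue, and type IV collagens form the sheet-like network of basement membranes. Type VI makes beaded filaments, type VII anchors epithelium to the tissue beneath it, FACIT collagens attach to fibril surfaces, and multiplexins sit in basement membrane zones. The chains are hydroxylated and glycosylated in the endoplasmic reticulum, exported in large carriers, trimmed outside the cell and crosslinked. In tumours much of the fibrillar collagen is usually made by fibroblasts, while epithelial cells contribute basement membrane chains.

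The promoters below are shown because they belong to the genes on which the comparison turns: Col18a1 and Col1a2, the 2 collagen genes that passed the test; Col3a1, the collagen gene with the highest level; and Col4a5 and Col4a6, which start 1.308 kb apart on opposite strands with very unequal levels. Sequences are from RefSeq, build GRCm38.p6, 5′ to 3′ on the gene's strand, from the 250 bases before a RefSeq start site, without bases that lie in annotated exons. Capitals mark the letters CANNTG, the E-box form that basic helix-loop-helix proteins are known to bind, and the GC box letters GGGCGG or their reverse complement CCGCCC.
Col18a1, chr10:77166549-77166780, minus strand: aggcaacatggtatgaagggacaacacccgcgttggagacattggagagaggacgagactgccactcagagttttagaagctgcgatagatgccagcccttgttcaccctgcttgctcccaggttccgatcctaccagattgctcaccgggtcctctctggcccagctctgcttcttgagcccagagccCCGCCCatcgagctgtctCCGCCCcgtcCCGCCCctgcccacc
Col1a2, chr6:4505370-4505492, plus strand: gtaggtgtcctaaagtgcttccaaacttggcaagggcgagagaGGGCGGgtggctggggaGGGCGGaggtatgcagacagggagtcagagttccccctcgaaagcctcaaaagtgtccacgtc
Col3a1, chr1:45311288-45311537, plus strand: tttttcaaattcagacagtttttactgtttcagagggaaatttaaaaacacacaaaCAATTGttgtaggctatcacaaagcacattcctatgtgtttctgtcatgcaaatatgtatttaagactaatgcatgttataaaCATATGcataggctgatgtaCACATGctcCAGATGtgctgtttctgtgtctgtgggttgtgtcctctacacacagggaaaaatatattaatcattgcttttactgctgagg
Col4a5, chrX:141475169-141475384, plus strand: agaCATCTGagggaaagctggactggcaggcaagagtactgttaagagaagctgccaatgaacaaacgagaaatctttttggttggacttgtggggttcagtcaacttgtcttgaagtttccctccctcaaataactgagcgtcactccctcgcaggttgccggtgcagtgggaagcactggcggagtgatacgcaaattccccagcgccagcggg
Col4a6, chrX:141474077-141474326, minus strand: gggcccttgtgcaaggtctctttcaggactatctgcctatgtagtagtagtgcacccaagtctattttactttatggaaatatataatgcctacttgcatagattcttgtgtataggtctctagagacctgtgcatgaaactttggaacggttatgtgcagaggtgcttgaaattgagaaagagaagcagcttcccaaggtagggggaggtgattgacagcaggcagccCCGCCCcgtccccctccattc
The bases printed for Col3a1 hold 4 CANNTG matches, those for Col4a5 hold 1, and those for Col18a1, Col1a2 and Col4a6 hold 0. The GC box letters occur 3 times for Col18a1, 2 times for Col1a2 and 1 time for Col4a6. Only Col3a1 and Col4a6 keep all 250 bases, so the match counts cannot be compared between genes. The Col1a2 stretch is the shortest and lies inside the annotated gene. Another Col18a1 start site, with few bases left outside exons, is not printed. RefSeq promoter windows of 300 bases (250 before and 50 after the start) were matched for 35 of the 44 genes, which have 38 windows. CANNTG, which reads the same on both strands, was found in 52.6% of these windows and in 72.3% of all 32851 windows in the table. The more specific forms CAGCTG and CATATG, which are included in CANNTG, were found in 18.4% and 2.63% of collagen windows and in 16.3% and 3.91% of all windows. GGGCGG on either strand was found in 60.5% of collagen windows and 35.7% of all windows, and TATAAA on either strand in 13.2% and 13.6%. A match describes letters only and is not a measured binding site.

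The libraries held 15464709 to 25129552 counts over all genes. Bhlhe22 had 0 counts in every vector library and 8706, 14785 and 17995 counts in Bhlhe22 replicates 1, 2 and 3, which fits the labels. Bhlhe22 replicate 1 stood apart by gene length: its median deviation from the mean of the 6 libraries, in log2(CPM + 1), went from 0.28 in the shortest of 10 length classes of genes to -0.21 in the longest, while no median of the vector libraries went beyond -0.044 or 0.043. Bhlhe22 replicates 2 and 3 ran the opposite way, from -0.10 to 0.07 and from -0.15 to 0.12. The tested collagen genes are long, with a median length of 8.84 kb against 5.54 kb for all tested genes. Calls of collagen genes that change without this library, or after removing the length trend, are given both ways.

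**Figure D1:**
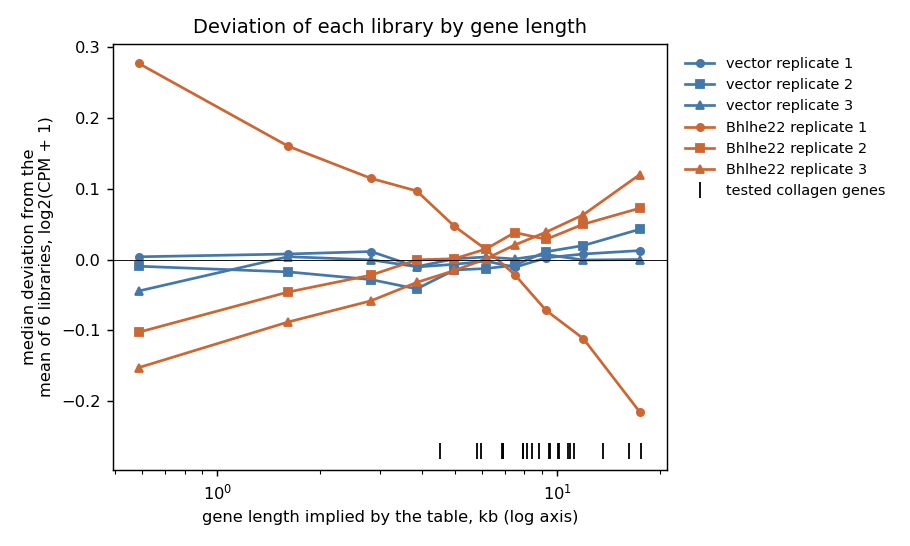
Median deviation of each library from the mean of the 6 libraries (vertical axis, log2(CPM + 1)) in 10 classes of genes ordered by length (horizontal axis, kb, log scale), with ticks at the lengths of the 21 tested collagen genes. Bhlhe22 replicate 1 falls from 0.28 to -0.21, Bhlhe22 replicates 2 and 3 rise, and most collagen ticks lie at lengths where its median is below 0.

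Of 12 epithelial and prostate markers, 4 passed the filter on low counts: Krt8, Krt18, Krt19 and Epcam. Among the 8 that did not, 5 were listed at 0 in all 6 libraries, Pbsn, Hoxb13 and Krt5 among them. No library had more than 6 counts of any other untested marker of this list. The summed level of the 12 epithelial and prostate markers was 894 to 940 FPKM (fragments per kilobase of gene length, scaled to the library's total count) in vector and 772 to 909 FPKM in Bhlhe22 libraries. Most of this sum was Krt18 and Krt8, with means of 466 and 389 FPKM in vector and 458 and 276 FPKM in Bhlhe22 cells. Krt8 passed the test as lower (log2 fold change -0.47) and Krt19 as higher (0.40). Among 12 fibroblast markers 4 passed the filter, Thy1, Postn and Tcf21 were listed at 0, and no library had more than 18 counts of any other untested marker, Dcn and Lum among them. The summed fibroblast marker level was 48.4 to 53.7 FPKM in vector and 55.9 to 62.5 FPKM in Bhlhe22 libraries. Most of this sum was Twist1, with means of 43.4 FPKM in vector and 47.9 FPKM in Bhlhe22 cells. Twist1 had overlapping groups and did not pass the test (edgeR adjusted p 0.26), while Pdgfrb passed it as higher (log2 fold change 0.53). The sums of endothelial markers (4 of 8 tested, Emcn at 0) were 2.32 to 2.57 and 1.88 to 2.18 FPKM. Macrophage marker sums (2 of 8 tested, with Adgre1, Lyz2, Itgam and Tyrobp at 0) were 26.6 to 28.5 and 28.4 to 32.2 FPKM. Almost all of the macrophage sum was Cd68 and Cd14, with means of 19.9 and 7.9 FPKM in vector and 23.6 and 7.0 FPKM in Bhlhe22 cells. Neither passed the test, and no library had more than 10 counts of an untested macrophage marker. Osteoblast and chondrocyte marker sums (3 of 8 tested, Ibsp at 0) were 7.16 to 7.998 and 7.997 to 10.3 FPKM. Alpl passed the test as higher by 2.92 on the log2 scale, from a low level. It had 8, 10 and 5 counts in vector and 47, 59 and 69 counts in Bhlhe22 replicates 1, 2 and 3. Runx2 and Sox9, most of this sum, did not pass the test (0.48 and 0.08, edgeR adjusted p 0.062 and 0.66). No library had more than 4 counts of an untested marker of this list. The part of these shifts in the collagen results was not tested. In a bulk sample, fewer cells of a kind and less RNA per cell cannot be told apart.

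In RM-1 cells collagen transcripts were dominated by a small set of chains, and the 10 chains with the highest mean FPKM were the same in both groups. Type XVIII collagen rose (Col18a1, 1.37-fold) and the type I partner chain Col1a2 fell from an already very low level (4.36-fold). The other 19 tested chains did not pass the test over all libraries, among them the most abundant ones, Col3a1, Col4a1 and Col4a2. Of the 44 genes, 21 passed the filter. With edgeR's quasi-likelihood test at an adjusted p under 0.05, 2 of these 21 (9.52%) were called, against 19.6% of the 14663 genes tested. Whether the collagen share lay below or above the background depended on the setting, as given below. Over all tested genes 10.4% were called higher and 9.28% lower. Fold changes pointed up in 15 and down in 6 of the 21 genes, with a median log2 fold change of 0.15 against 0.0098 over all tested genes. Without Bhlhe22 replicate 1, 6 collagen genes were called higher and 3 lower among 22 tested (40.9%), where 31.3% of all tested genes were called. The collagen share was also above that of all tested genes after the length correction (28.6% against 24%), after correction for length and GC content (33.3% against 24.8%), without Bhlhe22 replicate 3 (18.2% against 14.9%) and by a small margin with a replicate block (14.3% against 14.2%). It was below with DESeq2 (19.0% against 23%), protein-coding genes alone (19.0% against 23.9%), a filter of 1 CPM in 3 libraries (5.88% against 21.6%) and limma on log2(FPKM + 1) (4.76% against 18.8%). Leaving out vector replicate 1, 2 or 3 or Bhlhe22 replicate 2 gave 4.76%, 0%, 5.00% and 9.09% of the collagen genes and 9.05%, 9.77%, 9.93% and 11.4% of all tested genes.

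**Figure D2:**
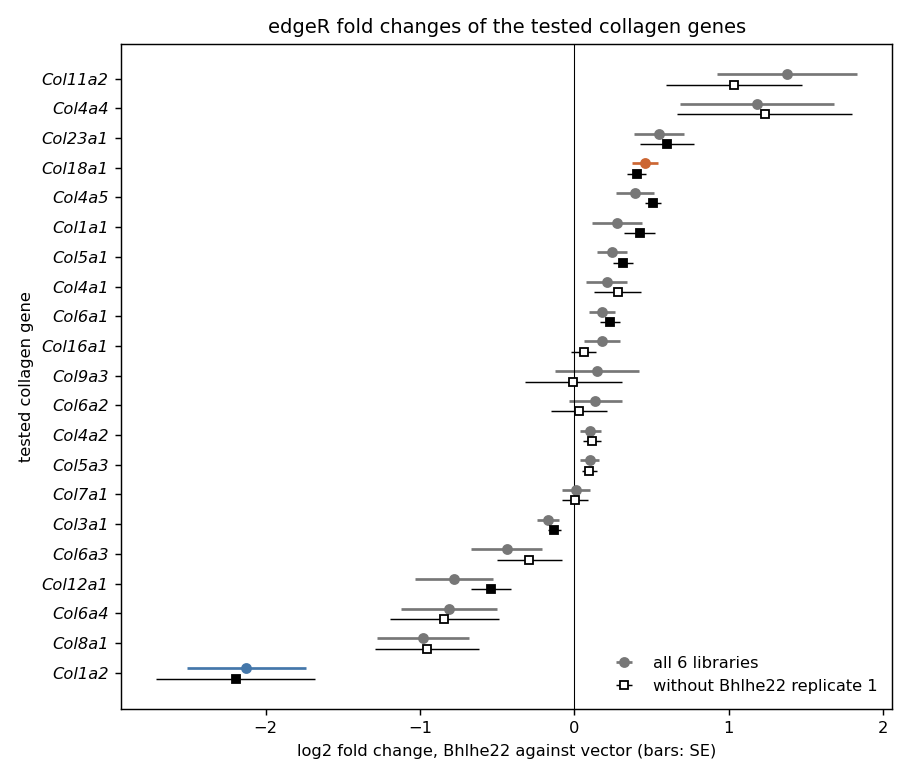
Log2 fold change of Bhlhe22 against vector for the 21 tested collagen genes (points, with SE as bars). Circles are from all 6 libraries and are coloured where the adjusted p is under 0.05 (orange higher, blue lower), and squares leave out Bhlhe22 replicate 1 and are filled where it is. Col18a1 and Col1a2 are the coloured circles, and 9 squares are filled.

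The summed level of all 44 genes was 284, 296 and 320 FPKM in vector replicates 1, 2 and 3 and 308, 337 and 325 FPKM in Bhlhe22 replicates 1, 2 and 3. The groups overlapped, with means of 300 ± 18.0 and 324 ± 14.6 FPKM (SD, n = 3), a ratio of 1.08. These sums were on average 0.0883% and 0.0944% of the FPKM of all genes. Per library the share was 0.0824%, 0.0875% and 0.0950% in vector and 0.0801%, 0.102% and 0.101% in Bhlhe22 replicates 1, 2 and 3. Over all genes, FPKM added up to 384821 in Bhlhe22 replicate 1 and to 323400 to 345030 in the other libraries. The 10 chains with a mean of at least 5 FPKM made up 98.1% of the collagen sum in both groups. The share of Col3a1 was 22.8% to 24.3% in vector and 18.5% to 19.8% in Bhlhe22 libraries, and that of Col18a1 was 10.3% to 10.9% and 12.6% to 14.97%. Neither share overlapped between groups. Fibrillar chains together made up 42.2% ± 1.03 in vector and 38.3% ± 1.29 in Bhlhe22 cells, and type IV chains 36.1% ± 1.24 and 37.2% ± 1.56 (SD, n = 3).

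**Figure D3:**
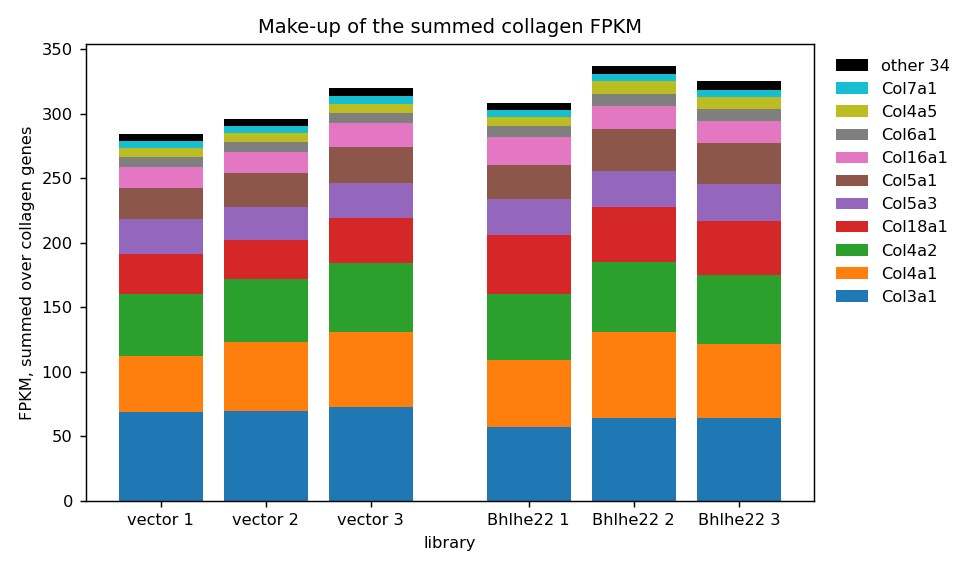
Summed FPKM of the 44 collagen genes in each library (bars from 0), split into the 10 most abundant genes and the other 34. Totals run from 284 to 337 FPKM; the bottom segment, Col3a1, is 57.2 to 64.4 FPKM in the Bhlhe22 bars and 69.1 to 73.0 FPKM in the vector bars.

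Col18a1 encodes the type XVIII chain of basement membranes, a heparan sulfate proteoglycan whose C-terminal fragment is endostatin. It lies at chr10:77052178-77166548 on the minus strand (GRCm38), and none of its exonic bases are shared with another gene. Its level was 31.0, 30.5 and 35.0 FPKM in vector replicates 1, 2 and 3 and 46.1, 42.5 and 42.0 FPKM in Bhlhe22 replicates 1, 2 and 3. Every Bhlhe22 library was above every vector library. The log2 fold change was 0.46 (SE 0.08, edgeR adjusted p 0.0096), with a 95% interval of 0.26 to 0.65. The call was lost without vector replicate 1 (0.43, edgeR adjusted p 0.057) or vector replicate 2 (0.42, edgeR adjusted p 0.054), and kept after the length correction (0.46, edgeR adjusted p 0.0088). The other multiplexin, Col15a1, had 4 to 10 counts in a library and was not tested. Col18a1 has more than 1 RefSeq start site, and gene counts do not tell its transcripts apart.

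Col1a2 encodes the second chain of type I collagen, the main collagen of bone and connective tissue, which is normally made of 2 chains from Col1a1 and 1 from Col1a2. It lies at chr6:4504814-4541544 on the plus strand. Vector replicates 1, 2 and 3 had 9, 12 and 11 counts, and Bhlhe22 replicates 1, 2 and 3 had 2, 2 and 3. The groups did not overlap, and all Bhlhe22 values were at or below a floor of 3 counts, which corresponds to 0.119 to 0.194 CPM. The log2 fold change was -2.12 (SE 0.38, edgeR adjusted p 0.0097). Over pooled counts, 32 in vector and 7 in Bhlhe22 libraries, the vector level was 4.61 times the Bhlhe22 level, with an exact 95% interval of 2.00 to 12.4 that covers counting error only. Without vector replicate 2 or vector replicate 3 the gene no longer passed the filter and was not tested. On the log2(FPKM + 1) scale, which flattens low genes, the change was -0.037 (limma adjusted p 0.37).

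Col1a1, the partner chain, was at 2.88, 2.86 and 2.96 FPKM in vector and 2.65, 3.48 and 4.24 FPKM in Bhlhe22 replicates 1, 2 and 3. Bhlhe22 replicate 1 was below and the other Bhlhe22 libraries above all vector libraries, and the log2 fold change was 0.28 (SE 0.16, edgeR adjusted p 0.27). Without Bhlhe22 replicate 1 it was 0.42 (edgeR adjusted p 0.016). Per length, Col1a1 exceeded Col1a2 by 79.1 to 93.2 times in vector and by 332 to 575 times in Bhlhe22 libraries. The groups were fully separated, and the two-sided exact permutation p of 0.1 for the log2 ratio (adjusted over 4 pairs of partner chains 0.4) is the smallest that 3 against 3 libraries can give. The Bhlhe22 ratios rest on 2 or 3 Col1a2 counts each. All these ratios also depend on gene lengths of 6.93 kb for Col1a1 and 16.2 kb for Col1a2, implied by count and FPKM. Raw Col1a1 counts were 359, 406 and 435 in vector and 284, 472 and 738 in Bhlhe22 replicates 1, 2 and 3.

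Col3a1, the single chain of type III collagen, which co-assembles with type I in soft tissue, had the highest level of all collagen genes. It was at 69.1, 69.9 and 73.0 FPKM in vector and 57.2, 63.9 and 64.4 FPKM in Bhlhe22 replicates 1, 2 and 3. The groups did not overlap, and the log2 fold change of -0.17 (SE 0.07) did not pass the test (edgeR adjusted p 0.14). It was -0.13 (edgeR adjusted p 0.047) without Bhlhe22 replicate 1 and -0.17 (edgeR adjusted p 0.037) after correction for length and GC content. After the length correction alone it was -0.17 and did not pass (edgeR adjusted p 0.056). Of the exonic bases of Col3a1, 1.44% are shared with another gene on the same strand.

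The type V chains regulate the diameter of type I fibrils. Col5a1 was at 23.9, 26.5 and 27.6 FPKM in vector and 26.8, 32.1 and 32.2 FPKM in Bhlhe22 replicates 1, 2 and 3. Only Bhlhe22 replicate 1 lay within the vector range, and the log2 fold change was 0.24 (SE 0.10, edgeR adjusted p 0.12), becoming 0.31 (edgeR adjusted p 0.0075) without that library. Col5a1 was also called after the length correction (0.24, edgeR adjusted p 0.049) and after correction for length and GC content (0.24, edgeR adjusted p 0.040). Col5a3 was at 26.6, 25.6 and 27.6 FPKM in vector and 27.6, 28.4 and 28.2 FPKM in Bhlhe22 replicates 1, 2 and 3, with a log2 fold change of 0.10 (SE 0.06, edgeR adjusted p 0.32). Its 95% interval of -0.05 to 0.25 leaves room for no difference and for a small increase. Col5a2, whose chain joins Col5a1 in the common type V trimer, had 1, 1 and 0 counts in vector libraries and 0 in all Bhlhe22 libraries.

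The type XI chains, known from cartilage, were low. Col11a2 had 13, 5 and 10 counts in vector and 28, 21 and 22 counts in Bhlhe22 replicates 1, 2 and 3. These groups did not overlap, yet the log2 fold change of 1.38 (SE 0.45) missed the threshold (edgeR adjusted p 0.075). Col11a1 was listed at 0 in every library. The remaining fibrillar genes, Col2a1, Col24a1 and Col27a1, had 1 to 16 counts in a library and were not tested.

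Col4a1 and Col4a2 encode the ubiquitous basement membrane trimer, 2 chains of the first with 1 of the second. Col4a1 was at 43.2, 53.4 and 57.6 FPKM in vector and 51.6, 66.7 and 57.4 FPKM in Bhlhe22 replicates 1, 2 and 3 (log2 fold change 0.21, SE 0.13, edgeR adjusted p 0.32). Col4a2 was at 48.3, 48.3 and 53.5 FPKM in vector and 51.3, 54.4 and 53.2 FPKM in Bhlhe22 replicates 1, 2 and 3 (log2 fold change 0.10, SE 0.07, edgeR adjusted p 0.35). Both pairs of groups overlapped. The 95% intervals of the log2 fold changes, -0.10 to 0.52 and -0.06 to 0.27, include no difference. The Col4a1 to Col4a2 ratio of FPKM was 1.03 ± 0.114 in vector and 1.10 ± 0.112 in Bhlhe22 cells (SD, n = 3). Its exact permutation p was 0.5 (adjusted p 0.667). This ratio depends on gene lengths of 10.1 kb for Col4a1 and 6.87 kb for Col4a2, implied by count and FPKM. Mean raw counts of Col4a1 and Col4a2 were 10393 and 6845 in vector and 11917 and 7310 in Bhlhe22 libraries. A ratio of transcript molecules was therefore not established.

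Col4a5, a chain of the kidney, lung and eye basement membranes whose gene is mutated in Alport syndrome, was at 7.08, 6.83 and 7.07 FPKM in vector and 7.30, 9.99 and 9.79 FPKM in Bhlhe22 replicates 1, 2 and 3. All Bhlhe22 libraries were above the vector libraries, and Bhlhe22 replicate 1 was close to them. The log2 fold change was 0.39 (SE 0.12), just short of the threshold with edgeR (adjusted p 0.065). It was 0.51 (edgeR adjusted p 0.00034) without Bhlhe22 replicate 1, 0.38 (edgeR adjusted p 0.034) after the length correction and 0.39 with DESeq2 (adjusted p 0.035). Col4a4 had 8, 5 and 2 counts in vector and 8, 10 and 17 counts in Bhlhe22 replicates 1, 2 and 3 (log2 fold change 1.18, SE 0.50, edgeR adjusted p 0.15). Its trimer partner Col4a3 had at most 3 counts in a library, and Col4a6 had 1 count in vector replicate 1 and 0 in the other 5 libraries.

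Type VI trimers take 1 chain each from Col6a1, Col6a2 and 1 other gene, most often Col6a3. Col6a1 was at 8.20, 7.99 and 7.77 FPKM in vector and 8.15, 9.33 and 9.28 FPKM in Bhlhe22 replicates 1, 2 and 3 (log2 fold change 0.18, SE 0.08, edgeR adjusted p 0.18). Bhlhe22 replicates 2 and 3 were above and replicate 1 within the vector range in FPKM, and without replicate 1 the change was 0.23 (edgeR adjusted p 0.034). The partner chains were far lower per length, with implied gene lengths of 4.53, 8.44 and 13.7 kb for Col6a1, Col6a2 and Col6a3. Their mean raw counts were 718, 57.7 and 138 in vector and 818, 62 and 103 in Bhlhe22 libraries. The ratios that follow depend on these lengths. Col6a1 exceeded Col6a2 by 23.6 ± 3.17 times in vector and 24.3 ± 4.31 times in Bhlhe22 cells (SD, n = 3; exact permutation p 1), and Col6a3 stood at 0.0631 ± 0.0162 and 0.0404 ± 0.00704 of Col6a1 (SD, n = 3; exact permutation p 0.2). Col6a2, Col6a3 and Col6a4 had log2 fold changes of 0.14, -0.44 and -0.81 (edgeR adjusted p 0.63, 0.23 and 0.11). Col6a5 and Col6a6 had at most 5 counts in a library.

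Col7a1, the anchoring fibril chain of the skin, was at 4.86, 5.63 and 5.78 FPKM in vector and 5.34, 5.60 and 5.21 FPKM in Bhlhe22 replicates 1, 2 and 3. The groups overlapped, with a log2 fold change of 0.01 (SE 0.09, edgeR adjusted p 0.96) whose sign changed with the scaling (-0.012 with library size alone, -0.0033 with upper quartile scaling). Its 95% interval of -0.20 to 0.22 bounds the change that these libraries could have missed. Of the network-forming chains, Col8a1, known from vessel walls and the cornea, had 27, 46 and 43 counts in vector and 14, 13 and 32 counts in Bhlhe22 replicates 1, 2 and 3 (log2 fold change -0.98, SE 0.30, edgeR adjusted p 0.058). Scaled to depth its groups did not overlap, and it was called after the length correction (-0.99, edgeR adjusted p 0.047) and without Bhlhe22 replicate 3 (-1.28, edgeR adjusted p 0.044). Col8a2 had 4 counts in vector replicate 1 and 0 elsewhere, and Col10a1, the chain of hypertrophic cartilage, had at most 2 counts in a library.

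Among the FACIT chains, Col16a1, which is found at fibril surfaces and near basement membranes, was the abundant one. It was at 16.4, 15.8 and 18.7 FPKM in vector and 21.6, 18.3 and 16.8 FPKM in Bhlhe22 replicates 1, 2 and 3. The groups overlapped, with Bhlhe22 replicate 1 as the highest library (log2 fold change 0.18, SE 0.12, edgeR adjusted p 0.33). Col12a1, a FACIT chain of tendon and fascia, was at 0.523, 0.603 and 0.583 FPKM in vector and 0.194, 0.356 and 0.421 FPKM in Bhlhe22 replicates 1, 2 and 3. All Bhlhe22 libraries were lower (log2 fold change -0.78, SE 0.25), short of the threshold with edgeR (adjusted p 0.071). It was called without Bhlhe22 replicate 1 (-0.54, edgeR adjusted p 0.017), after the length correction (-0.79, edgeR adjusted p 0.022) and with DESeq2 (-0.79, adjusted p 0.021), and also without Bhlhe22 replicate 3 (-1.01, edgeR adjusted p 0.042). Col9a3, a cartilage chain, had 14 to 18 counts in every library (log2 fold change 0.15, edgeR adjusted p 0.80). Col9a1, Col9a2 and Col19a1 were listed at 0 throughout, and Col14a1, Col20a1 and Col22a1 had at most 11 counts in a library.

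Col23a1, a membrane-spanning collagen, was the only one of 4 transmembrane chains to be tested. It was at 0.476, 0.426 and 0.544 FPKM in vector and 0.628, 0.685 and 0.766 FPKM in Bhlhe22 replicates 1, 2 and 3. The groups did not overlap, and the log2 fold change of 0.55 (SE 0.16) missed the threshold (edgeR adjusted p 0.057), which it passed without Bhlhe22 replicate 1 (0.60, edgeR adjusted p 0.036). Col13a1 and Col17a1 had at most 4 counts in a library and Col25a1 was listed at 0. Col26a1 was listed at 0 and Col28a1 had 2 counts in Bhlhe22 replicate 2 and 0 elsewhere. In all, 6 of the 44 genes were listed at 0 in every library, and no untested gene exceeded 0.0931 FPKM. The table also lists Itgb1, the integrin beta chain that most cells express, at 0 in all 6 libraries, so a listed 0 is not read as absence of transcripts.

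**Figure D4:**
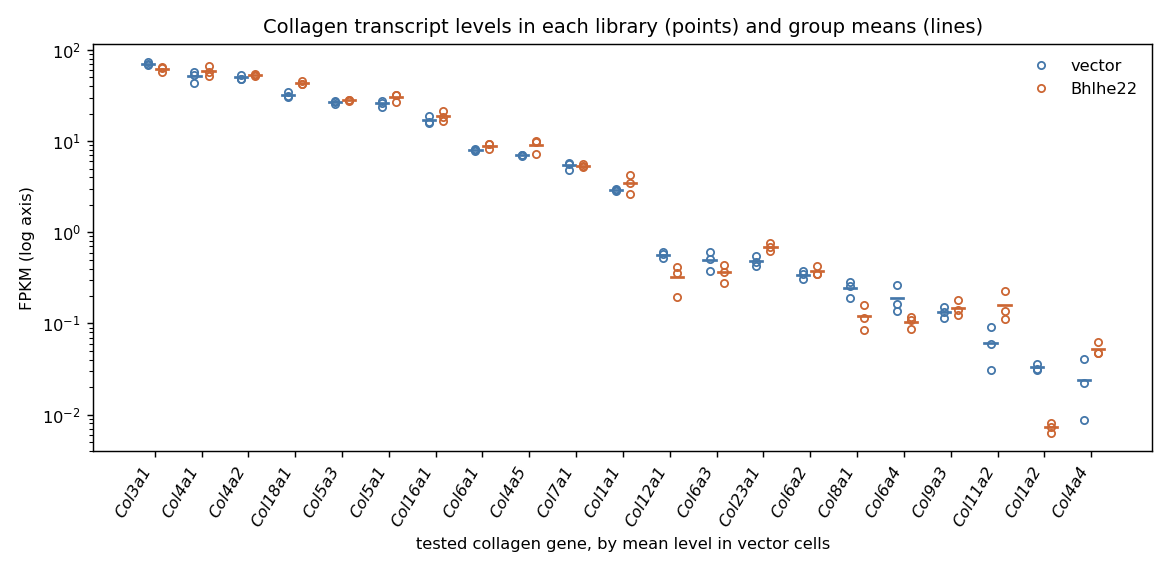
FPKM (vertical log axis) of the 21 tested collagen genes in each library (open circles) with group means (lines), ordered by the mean in vector cells. Levels run from about 70.7 FPKM for Col3a1 to 0.0240 FPKM for Col4a4 in vector cells, and the blue and orange circles of Col18a1 and of Col1a2 do not overlap.

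Precision followed the level. Standard errors of the log2 fold changes were 0.063 to 0.134 for the 10 genes with a mean of at least 5 FPKM and 0.164 to 0.499 for the 10 tested genes below 1 FPKM. The 9 genes of the first set other than Col3a1 had positive log2 fold changes, though Col7a1 turned sign under other scalings. On the CPM scale the groups did not overlap in 12 of the 21 genes (57.1%), against 40.8% of all tested genes. An unadjusted edgeR p under 0.05 was reached by 11 of the 21 genes (52.4%), against 33.6% of all tested genes. Bhlhe22 replicate 1 was the lowest Bhlhe22 library in 11 of the 21 genes, and it was the lowest in 41.9% of all tested genes.

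Over 93 genes in 8 lists of modifying enzymes, chaperones, partners, receptors and proteases, 60 were tested, 10 were higher and 4 were lower in Bhlhe22 cells. That is 23.3%, near the 19.6% of all tested genes, and the median log2 fold change was 0.037. The list of prolyl and lysyl hydroxylases and glycosyltransferases had 14 of 15 genes tested, with 3 higher and 2 lower. P4ha1 and P4ha2 encode catalytic subunits of the prolyl 4-hydroxylase that makes the triple helix stable. P4ha1 rose from 41.6 ± 0.628 to 56.0 ± 0.920 FPKM (SD, n = 3; log2 fold change 0.45, edgeR adjusted p 0.0027). P4ha2 rose from 6.15 ± 0.239 to 9.31 ± 0.407 FPKM (SD, n = 3; log2 fold change 0.62, edgeR adjusted p 0.0019). P4ha3, another catalytic subunit, fell from 2.91 ± 0.0422 to 1.957 ± 0.0572 FPKM (SD, n = 3; log2 fold change -0.55, edgeR adjusted p 0.0071). Crtap, part of the prolyl 3-hydroxylation complex, fell from 34.5 ± 0.655 to 25.4 ± 1.19 FPKM (SD, n = 3; log2 fold change -0.42, edgeR adjusted p 0.0068). These 4 genes were named for the smallest adjusted p in the list, and none had groups that overlapped. Among the genes for prolyl 4-hydroxylase catalytic subunits, P4ha1 and P4ha2 were higher and P4ha3 was lower. The last called gene of the list, the lysyl hydroxylase Plod1, was higher by 0.30 on the log2 scale, and P4hb, the shared beta subunit, did not pass the test (0.13, edgeR adjusted p 0.18).

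Mia3 (TANGO1) and Mia2 encode proteins of the endoplasmic reticulum exit sites that load bulky procollagen. Both rose, Mia3 from 16.3 ± 2.46 to 21.9 ± 1.63 FPKM and Mia2 from 9.97 ± 0.542 to 13.1 ± 0.531 FPKM (SD, n = 3; log2 fold changes 0.45 and 0.41, edgeR adjusted p 0.040 and 0.0090). They were 2 of 11 tested genes of the folding and export list, none of which was lower, and the collagen chaperone Serpinh1 (HSP47) did not pass the test (0.23, edgeR adjusted p 0.39). The call of Mia2 was lost without vector replicate 1 (edgeR adjusted p 0.0501), and that of Mia3 without any library other than Bhlhe22 replicate 1 (edgeR adjusted p up to 0.11).

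Outside the cell, Pcolce2, an enhancer of procollagen C-propeptide cleavage, fell from 21.5 ± 1.04 to 16.0 ± 1.10 FPKM (SD, n = 3; log2 fold change -0.40, edgeR adjusted p 0.016). It was the 1 called gene of 4 tested for propeptide processing. Loxl2, a lysyl oxidase that crosslinks collagen, was at 73.6, 76.8 and 75.2 FPKM in vector and 42.2, 54.9 and 59.6 FPKM in Bhlhe22 replicates 1, 2 and 3 (log2 fold change -0.50 with SE 0.12, adjusted p 0.028 in edgeR). It was the 1 called gene of 4 tested for crosslinking, it was lowest in Bhlhe22 replicate 1, and another gene on the opposite strand shares 5.57% of its exonic bases. Mmp13, a collagenase that cuts fibrillar collagen, was at 3.29, 3.88 and 4.04 FPKM in vector and 8.37, 8.90 and 7.85 FPKM in Bhlhe22 replicates 1, 2 and 3. Every Bhlhe22 library was well above the vector libraries, and the log2 fold change of 1.18 (SE 0.11, edgeR adjusted p 0.00082) was the largest among called genes of the 8 lists. The other 4 tested genes of the degradation list, Mmp2, Mmp9, Mmp14 and Pepd, did not pass the test. The call of Pcolce2 was lost without vector replicate 1, vector replicate 3 or Bhlhe22 replicate 2 (edgeR adjusted p up to 0.075), and that of Loxl2 without any vector library or Bhlhe22 replicate 2 (edgeR adjusted p up to 0.099). Those of Mmp13, P4ha1, P4ha2, P4ha3 and Crtap held in every alternative run.

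Of the collagen receptors, 6 of 12 were tested and Itga1, the alpha chain of a collagen-binding integrin, was higher (log2 fold change 0.44, SE 0.12, edgeR adjusted p 0.044). Among the basement membrane partners 11 of 15 were tested and 3 were higher, among them the laminin chains Lamb1 (39.6 ± 1.47 to 50.2 ± 3.75 FPKM) and Lamb3 (0.374 ± 0.0321 to 0.524 ± 0.00578 FPKM; SD, n = 3). The log2 fold changes of these laminin genes were 0.37 and 0.51 (edgeR adjusted p 0.016 and 0.047). The calls of Itga1 and Lamb3 were lost in the fit with a replicate block (edgeR adjusted p 0.051 and 0.12). Leaving out a library ended the call of Lamb3 in all 6 cases (edgeR adjusted p 0.056 to 0.15) and that of Itga1 in all but the one without Bhlhe22 replicate 1 (up to 0.16). That of Lamb1 was lost without any vector library or without Bhlhe22 replicate 2 (up to 0.089). None of the 5 tested fibril partners, fibronectin among them, was called.

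**Figure D5:**
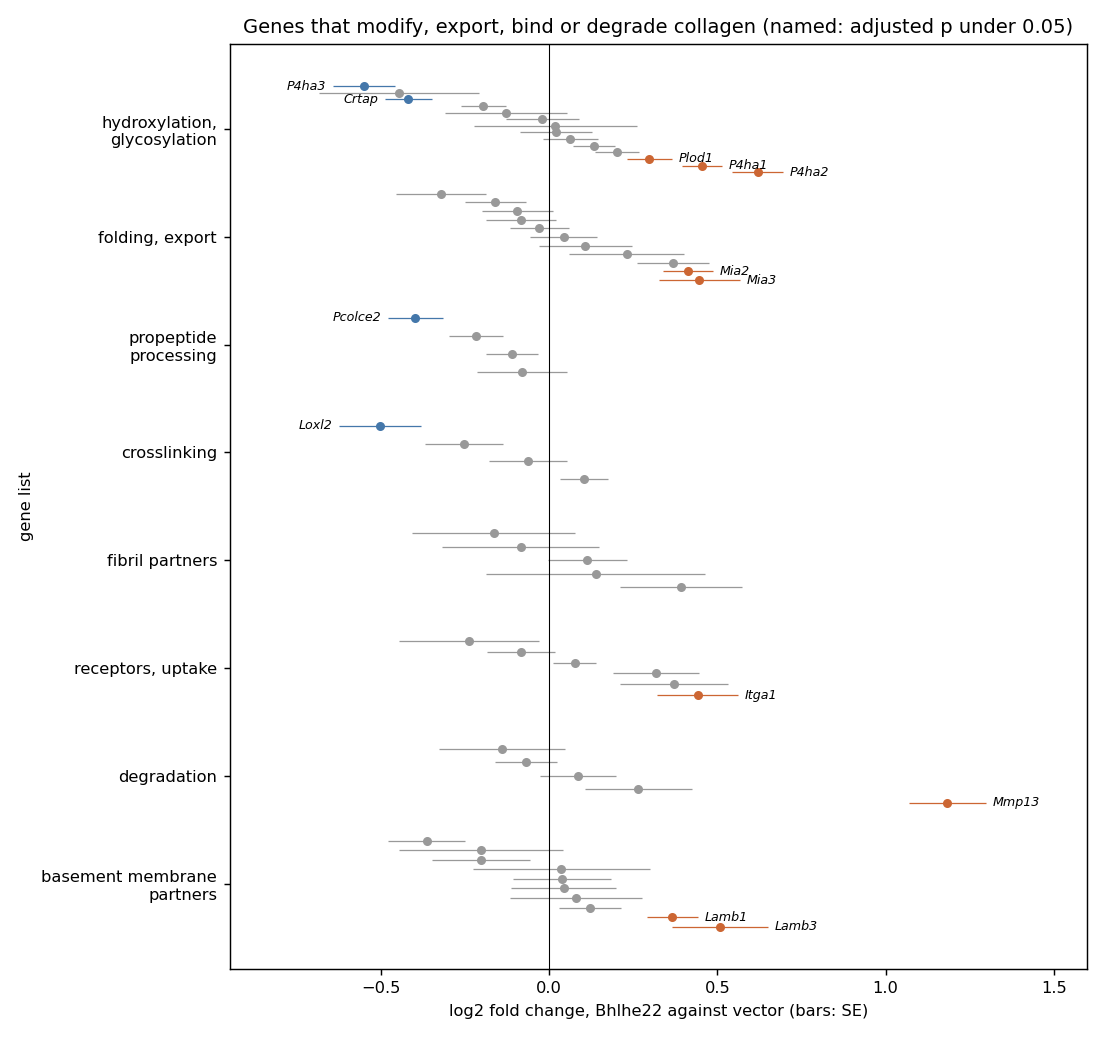
Log2 fold change of Bhlhe22 against vector (horizontal axis, bars SE) for tested genes of the 8 lists around collagen, one band per list, with 1 gene left out. Named points have an adjusted p under 0.05 (orange higher, blue lower): 4 lie to the left of 0, and among those to the right Mmp13 is farthest out at 1.18.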

How the data were processed

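Raw counts per gene and FPKM values of the 6 libraries were deposited by the authors in 1 table; the submitters' processing notes name CASAVA 1.8, HISAT2 2.1.0, StringTie 1.3.4b, edgeR and build GRCm38 without giving their roles. For strandedness, filters and annotation release: not given in the sources used here. In 10435 of 10435 genes with 100 counts in every library, count and FPKM implied the same gene length within 0.001%, so the deposited FPKM are the same counts per length, and these lengths were used. Libraries held 15464709 to 25129552 counts.

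Counts of all genes were fitted with edgeR 4.0.16 in R 4.3.3 (TMM scaling, filterByExpr with minimum count 10 and total 15, robust quasi-likelihood F test, Benjamini-Hochberg adjustment over all 14663 genes tested, threshold 0.05). Standard errors are the log2 fold change divided by the square root of F. CPM use TMM-scaled library sizes. The script was tested on simulated data. Strands and exon overlaps came from GENCODE M21 (bedtools 2.31.1), in which all 44 collagen genes have the deposited coordinates. Ratios of partner chains were tested with two-sided exact permutation tests.

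Named with values were collagen genes called or with a mean of at least 5 FPKM in either group, and up to 4 called genes of each list. Col1a1, Col4a4, Col8a1, Col11a2, Col12a1, Col23a1, Plod1, Itgb1 and the genes of the lists given as not passing the test were added after their values were seen. So were Twist1, Krt18, Cd68, Cd14, Runx2, Sox9 and the called markers. A few genes of the lists are not reported here by name. Members and lists were chosen with earlier results of these data known. The alternatives were DESeq2 1.42.0, limma 3.58.1 (voom, and log2 FPKM with a pseudocount of 1), scaling by library size, upper quartile or RLE, omitting the filter or asking for 1 CPM in 3 libraries, no robust estimation, a replicate block, protein-coding genes alone and leaving out each library. Spline corrections for each library's trend on length, or length and GC content, were added after seeing the data.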

Additional observations from a re-analysis of the deposited data

How the results depend on the processing

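The direction of Col18a1 and Col1a2 held in every alternative that tested them. From 1 collagen gene called higher, the count became 2 with DESeq2 (Col4a5 added) and with protein-coding genes alone (Col23a1 added), 3 with either the length or the length and GC correction (Col4a5 and Col5a1 added), and 0 to 6 when a library was left out. From 1 called lower, the count became 0 with the 1 CPM filter, which left Col1a2 untested, and with limma on log2 FPKM. It became 2 with DESeq2 (Col12a1 added) and with protein-coding genes alone (Col8a1 added), 3 with the length correction, 4 with length and GC, and 0 to 3 when a library was left out. Leaving out a library gave 715 to 2345 higher and 633 to 2337 lower calls over all genes, from 1520 and 1361, and 3 to 18 higher and 2 to 9 lower calls in the lists around collagen, from 10 and 4. Over all genes and in these lists the most calls came without Bhlhe22 replicate 1. The cause of these changes was not tested.

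The log2 fold change of Col7a1 turned to -0.012 with library size scaling, -0.0033 with upper quartile scaling and -0.0073 with limma on log2 FPKM, and ranged from -0.063 to 0.057 over left-out libraries. That of Col9a3 ranged from -0.0058 to 0.28, and the log2 ratio of Col6a1 to Col6a2 from -0.052 to 0.19.

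Deviations of same-numbered libraries from their group means correlated at 0.029, 0.021 and 0.016. Differently numbered libraries were not compared, so these values cannot decide whether replicate numbers pair the samples. With a replicate block 1086 genes were higher and 993 lower, collagen genes gave 1 higher and 2 lower (Col12a1 added), and the lists 6 higher and 4 lower.

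Depth limits the 23 untested collagen genes, none above 16 counts in a library, and Col1a2, where 3 counts are the floor.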

Other observations

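Collagen genes often lie beside each other, and levels of such neighbours differed by gene. Col4a1 and Col4a2 stand head to head on chromosome 8 with annotations that overlap by 22 bases, and their vector levels were close, at 51.4 and 50.03 FPKM. Col4a6 and Col4a5 stand head to head on chromosome X, 1.308 kb apart, at 0.00226 and 6.99 FPKM. Col4a4 and Col4a3 on chromosome 1, 0.071 kb apart, were both near 0, at 0.0240 and 0.00619 FPKM. Col3a1 and Col5a2 lie 24.6 kb apart on chromosome 1, tail to tail, at 70.7 and 0.00345 FPKM, and Col6a2 and Col6a1 lie 85.2 kb apart on chromosome 10 on the same strand, at 0.342 and 7.99 FPKM.

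The ratio of observed to expected CpG in the RefSeq promoter windows had a median of 0.574 in the 10 matched collagen genes with a mean of at least 5 FPKM. It was 0.516 in 8 matched tested genes below that level, 0.374 in 17 untested genes and 0.415 over 27025 genes of the table. The ranges of the collagen groups overlapped widely, and no test was made.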
